A study of Mus musculus with 9 samples.

Results

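The transcripts described here are the messenger RNAs of the respiratory chain that are encoded by mitochondrial DNA itself. They were chosen by name in the gene column of the deposited count table, and 10 of the 55414 genes listed carry one of the chosen names: mt-Nd1, mt-Nd2, mt-Nd4, mt-Nd5, mt-Nd6, mt-Co1, mt-Co2, mt-Co3, mt-Cytb and mt-Atp6. The count table covers mouse round spermatids (RS), the haploid germ cells that follow meiosis, sorted from the testis of males labelled wild type. All 9 RNA samples came from cells sorted by flow cytometry from adult mice on a C57Bl/6 background that carried Stra8-iCre, a recombinase driven by a germ cell promoter, and a tdTomato reporter. All were cultured for 24 h. The study's methods give a medium with lactate, pyruvate and glutamine for its spermatocyte cultures and name none for RS. The vehicle group (replicates 1 to 3) received 0.15% DMSO. The oxamate group (replicates 4 to 6) received 24 mM oxamate, an inhibitor of lactate dehydrogenase, with the same DMSO. The group with both compounds (replicates 7 to 9) received 24 mM oxamate and 0.3 mM octyl-L2HG, a cell-permeable ester of L-2-hydroxyglutarate (L-2HG), a product of lactate dehydrogenase. The comparisons ask how blocking lactate dehydrogenase changes transcript levels in RS and which changes follow when L-2HG is supplied. The cells of each group were incubated in triplicate, per the study's methods, and no source says whether the triplicates came from separate animals or cell sorts, so p-values measure the spread between these incubations, which may be technical.

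Mitochondrial DNA is a small circle copied from both strands into long precursor RNAs, which are cut at the transfer RNAs between the genes. All its messenger RNAs encode subunits of respiratory complexes I, III, IV and V that sit in the inner membrane, and they are assembled with many subunits encoded in the nucleus. Because the messages of one strand start as one precursor, differences between their steady levels are usually ascribed to processing and stability rather than to separate promoters. Round spermatids rely on lactate as a fuel, and oxamate acts on the enzyme that interconverts lactate and pyruvate.

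The 10 transcripts fall into 4 complexes. Complex I, which oxidises NADH, is represented by mt-Nd1, mt-Nd2, mt-Nd4, mt-Nd5 and mt-Nd6, complex III by mt-Cytb, which encodes cytochrome b, complex IV by mt-Co1, mt-Co2 and mt-Co3, and complex V, the ATP synthase, by mt-Atp6. In GENCODE M21 transcripts (GRCm38, a build older than the GRCm39 that the counts use, so no coordinates are given), mt-Nd1 is the first and mt-Cytb the last of the 13 protein-coding genes in map order, and mt-Nd6 alone lies on the other strand. The starts of the transcripts that the results below turn on are shown 5′ to 3′, with the first codon in capitals, to show how they differ from each other and from nuclear messages.
mt-Nd1: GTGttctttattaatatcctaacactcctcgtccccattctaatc
mt-Nd2: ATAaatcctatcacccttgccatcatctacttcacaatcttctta
mt-Co1: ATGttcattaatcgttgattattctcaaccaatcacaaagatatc
mt-Cytb: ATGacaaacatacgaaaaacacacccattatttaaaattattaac
mt-Nd6: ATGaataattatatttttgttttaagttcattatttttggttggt
mt-Nd1 and mt-Nd2 open with GTG and ATA, which mitochondrial ribosomes read as starts. mt-Nd6, from the other strand, has 28.1% G and 6.0% C, whereas mt-Cytb has 12.2% G and 26.9% C. Transcripts mt-Nd4, mt-Co3 and mt-Cytb have 1 base beyond the last whole codon, and the stop codon is completed by polyadenylation, as their last 30 bases show with that base in capitals.
mt-Nd4: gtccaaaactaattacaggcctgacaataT
mt-Co3: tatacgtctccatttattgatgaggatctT
mt-Cytb: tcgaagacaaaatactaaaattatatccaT

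Several mitochondrial genes have annotated nuclear copies, and a read that lies in a stretch identical to a copy cannot be assigned to either by its sequence. For each transcript, the share of its 75-base windows that also occur in a nuclear transcript was computed. It was 0.0% for mt-Nd1, mt-Nd6 and mt-Cytb, 1.7% for mt-Nd5, 5.7% for mt-Nd2, 39.8% for mt-Co1 and 61.5% for mt-Nd4. The sources differ on the sequencer and so leave the read length in doubt, and in 100-base windows the share was 0.0% for mt-Nd5, 3.2% for mt-Nd2, 30.8% for mt-Co1 and 60.8% for mt-Nd4. In contrast, at either length it was 99.5% for mt-Co2 (copy Gm28661), 99.5% for mt-Atp6 (copy Gm10925) and 99.9% for mt-Co3 (copy Gm28437). The first 60 bases of mt-Atp6 show such a stretch, which Gm10925 matches at every base.
mt-Atp6: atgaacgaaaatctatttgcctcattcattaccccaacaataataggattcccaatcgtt
mt-Co1 shares its 3′ part with Gm29216, from which it differs at 6 of 492 bases. All 6 lie at the start of the stretch compared, shown from base 1054 of mt-Co1 with differing bases in capitals.
mt-Co1: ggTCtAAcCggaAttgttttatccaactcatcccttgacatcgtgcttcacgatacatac
Gm29216: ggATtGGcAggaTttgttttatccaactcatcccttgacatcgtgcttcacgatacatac
Counted from the first base of mt-Co1, the differences are T1056A, C1057T, A1059G, A1060G, C1062A and A1066T, with the mitochondrial base first. mt-Nd2 and its partial copy Gm13339 are separated more often, at 17 of 510 bases, with C759T, C780T and T781C among the differences.

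The counts divided along the same line. mt-Co2, mt-Atp6 and mt-Co3 held at most 19 reads in any library, with 17, 31 and 87 reads summed over the 9 libraries. The other 7 transcripts held at least 30 reads in every library, from 471 reads for mt-Nd6 to 175186 for mt-Co1. The nuclear copies themselves held at most 14 reads in a library. Among the protein-coding mitochondrial genes that are not in the chosen list, mt-Nd3 and mt-Nd4l, with 97.8% and 98.7% of windows shared, held 8 and 0 reads, and mt-Atp8, with 0.0% shared, held 10371. How the counting treated reads with several matches is not given in the sources used here, and its part in the low counts was not tested. The counts of mt-Co2, mt-Atp6 and mt-Co3 therefore say little about the level of these messages, and those of mt-Co1 and mt-Nd4 may rest on part of their length.

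**Figure D1:**
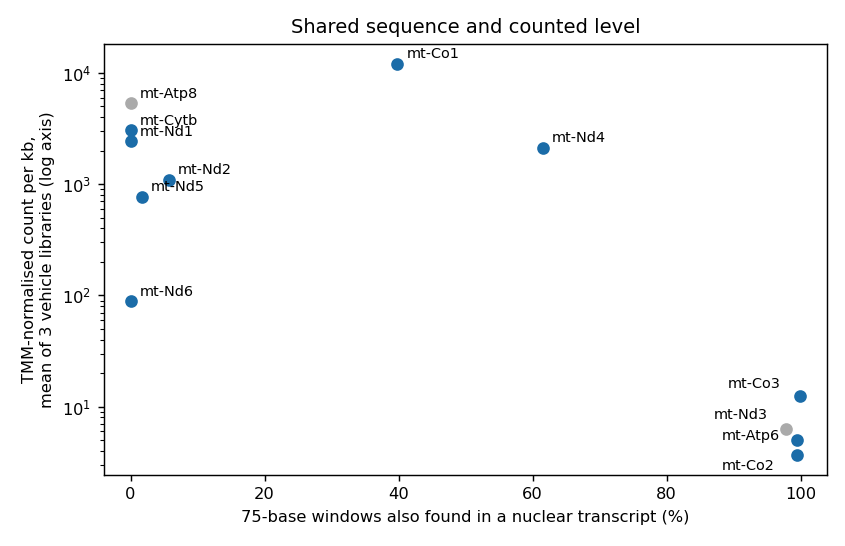
Each point is a mitochondrial protein-coding transcript, with the percent of its 75-base windows that also occur in an annotated nuclear transcript on the x axis and the mean TMM-normalised count per kilobase in the 3 vehicle libraries on a log y axis (blue, the transcripts described; grey, mt-Atp8 and mt-Nd3; mt-Nd4l, at 0 reads, is not drawn). The 4 transcripts above 97% shared lie below 13 counts per kilobase, and the others lie above 88.

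Libraries held between 32339533 and 39888396 counted reads, and no library duplicated another. Oxamate replicate 4 stood apart from the other oxamate libraries: the chi-square per degree of freedom of its counts was 18.68 and 23.30 against replicates 5 and 6, whose counts were closer to each other. Vehicle replicate 1 also differed more from replicates 2 and 3 (11.93 and 11.32) than these did from each other (6.48). The 10 round spermatid markers, among them Acrv1, Tnp1 and Prm1, summed to between 2693.0 and 3141.6 CPM (counts scaled to a common library size) in all 9 libraries, spermatocyte markers to between 238.9 and 308.0, spermatogonial markers to at most 6.86, and Sertoli, Leydig, peritubular myoid and macrophage markers to at most 4.48 each. The round spermatid sum was 2931.1 to 3141.6 in vehicle, 2879.1 to 3078.7 with oxamate and 2693.0 to 2724.8 with both compounds. The last group thus lay below all other libraries. Against oxamate, 4 of the 10 markers were called lower and 0 higher, beside 8.06% and 3.18% of all genes. Against vehicle, 5 were lower and 2 higher, beside 10.6% and 7.48%. With oxamate alone, 3 of the 10 were lower, beside 1.22%. Of 5 stress genes tested, 1 was higher with oxamate (beside 3.97% of all genes) and 2 were lower with both compounds against oxamate (beside 8.06%). Against vehicle, both compounds gave 1 higher and 1 lower (beside 7.48% and 10.6%). Spermatocyte markers summed to 247.0 to 308.0 CPM in vehicle, 238.9 to 263.7 with oxamate and 281.4 to 289.2 with both compounds. The last lay above every oxamate library, with 1 of 6 called higher in that comparison (beside 3.18% of all genes). Peritubular myoid markers summed to 2.13 to 2.73 CPM in vehicle, 1.69 to 1.97 with oxamate and 1.39 to 1.59 with both compounds, with no overlap between groups. Against vehicle, 1 of 5 was called lower with oxamate (beside 1.22% of all genes) and 1 with both compounds (beside 10.6%). Spermatogonial sums also separated the groups, at 5.44 to 5.97 CPM in vehicle, 6.61 to 6.86 with oxamate and 6.19 to 6.55 with both compounds. Of the 6, 1 was called lower with both compounds against vehicle (beside 10.6% of all genes). Sertoli sums with both compounds (0.0630 to 0.0919) lay below all other libraries. With oxamate, Leydig (0.547 to 0.777) and macrophage sums (3.16 to 3.43) lay below vehicle (0.796 to 1.06 and 3.59 to 4.48). The part of these changes in the results below was not tested.

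Together the 10 transcripts took a small share of the counted reads, similar in the 3 groups. The share was 0.0759%, 0.0880% and 0.0897% in the vehicle libraries, 0.0771%, 0.0841% and 0.0924% in the oxamate libraries, and 0.0860%, 0.0830% and 0.0782% in the libraries with both compounds. The group means were 0.0845% ± 0.00754, 0.0845% ± 0.00767 and 0.0824% ± 0.00393 (SD, n = 3 each), and the ranges overlap. These libraries were made from polyadenylated RNA, so the shares are not those of total RNA. They also hold few reads of mt-Co2, mt-Atp6 and mt-Co3, whose levels the counts say little about. In bulk samples a smaller number of cells of a type cannot be told apart from less RNA per cell.

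mt-Co1, the core subunit of cytochrome c oxidase, dominated the counted pool. mt-Co2, mt-Atp6 and mt-Co3 held at most 19 reads in a library, so these are shares of counted reads and not of message levels. mt-Co1 made up 62.31% ± 1.10 of the reads on the 10 transcripts in vehicle, 62.41% ± 2.66 with oxamate and 67.19% ± 2.26 with both compounds (SD, n = 3). mt-Cytb came next in vehicle and with oxamate, at 11.57% ± 0.420 and 11.06% ± 1.05, and fell behind mt-Nd4 (8.62% ± 0.385) with both compounds, at 8.18% ± 0.438. For mt-Cytb, the libraries with both compounds, at 7.71% to 8.58%, lay below all others. The share of mt-Nd2 likewise went from 3.78% ± 0.0829 and 3.71% ± 0.318 to 2.86% ± 0.253, below the other libraries.

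Levels of different transcripts were compared per kilobase, as counts scaled by TMM (trimmed mean of M values, which corrects for library size and composition) divided by transcript length. In vehicle the order was mt-Co1 at 12141 ± 873, mt-Cytb at 3053 ± 366, mt-Nd1 at 2437 ± 258, mt-Nd4 at 2136 ± 260, mt-Nd2 at 1099 ± 98.6, mt-Nd5 at 770 ± 78.1 and mt-Nd6 at 88.4 ± 21.6 counts per kilobase (SD, n = 3). mt-Nd1 and mt-Nd4 were the only neighbours among these 7 whose vehicle libraries overlapped. In these libraries of polyadenylated RNA, mt-Nd6, from the other strand, was the lowest of those with unique sequence in all 3 groups. How fully each message was captured was not tested. Counted per 1000 windows not shared with a nuclear transcript, a measure chosen after seeing the data, mt-Co1 stood at 21195 and mt-Nd4 at 5863, which put mt-Nd4 above mt-Cytb at 3264.

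The order of mt-Cytb and mt-Nd1 switched with octyl-L2HG. This pair was picked after seeing the data, and how many other pairs separate the groups was not counted. Per kilobase, the ratio of mt-Cytb to mt-Nd1 was 1.23, 1.24 and 1.29 in vehicle, 1.13, 1.22 and 1.20 with oxamate, and 0.785, 0.864 and 0.878 with both compounds. mt-Cytb was therefore above mt-Nd1 in 6 of 6 libraries without octyl-L2HG and below it in 3 of 3 libraries with it. Both transcripts have 0.0% of windows shared with nuclear copies.

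**Figure D2:**
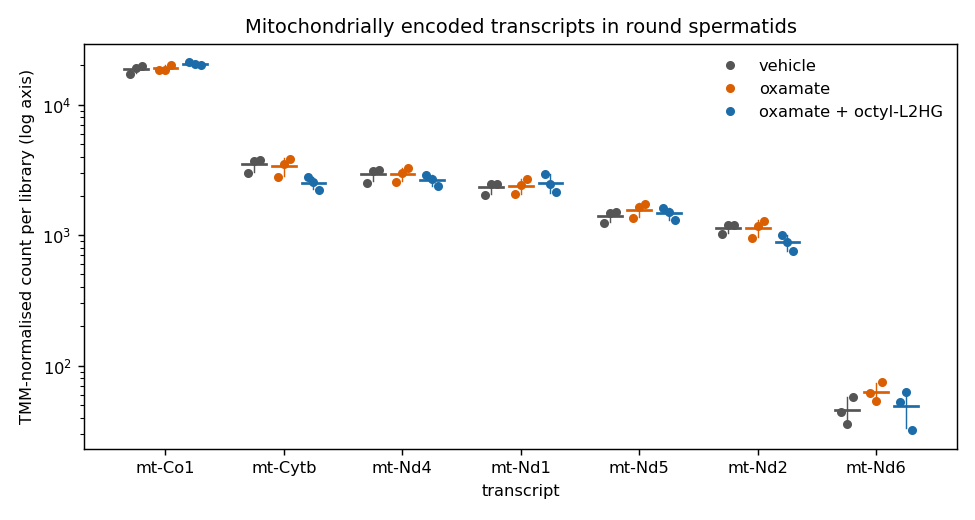
TMM-normalised counts of the 7 transcripts with at least 30 reads in every library, on a log axis, for 3 vehicle, 3 oxamate and 3 oxamate + octyl-L2HG libraries (points, single libraries; horizontal lines, means; vertical lines, SD). mt-Cytb is lower in each library with both compounds than in the other 6, mt-Nd2 is lower there than in vehicle and overlaps with oxamate, and the groups of mt-Nd1, mt-Nd4, mt-Nd5 and mt-Nd6 overlap.

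Oxamate alone left the mitochondrial transcripts without a called change. By the quasi-likelihood test of edgeR, with p-values adjusted by the Benjamini-Hochberg method over all 25128 genes tested, 0 of the 10 passed an adjusted p of 0.05, beside 5.19% of all genes, and DESeq2 also called 0. At an unadjusted p under 0.05 there was 1, beside 17.3% of all genes, and in 0 of the 10 did the libraries of the groups not overlap, beside 21.4% of all genes. The log2 fold change was above 0 for 5 and below 0 for 5, with a median of 0.01 against -0.01 over all genes tested.

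The transcript with that unadjusted p was mt-Nd6, a complex I subunit. Its normalised counts were 44.03, 35.70 and 57.91 in vehicle, 61.31, 53.68 and 75.04 with oxamate, and 52.31, 62.96 and 31.95 with both compounds. The oxamate libraries were mostly higher, but one of them lay below the highest vehicle library, and the raw reads were only 34 to 68 a library. Against vehicle this gave a log2 fold change of 0.45 (SE 0.22, unadjusted p = 0.0497, adjusted p = 0.288 by edgeR).

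mt-Nd5, the largest of the complex I subunits encoded here, held 1241.1, 1478.1 and 1496.4 normalised counts in vehicle, 1345.8, 1647.4 and 1719.3 with oxamate, and 1610.4, 1499.5 and 1297.9 with both compounds. All groups overlap. Oxamate against vehicle gave a log2 fold change of 0.16 (SE 0.10, adjusted p = 0.43 by edgeR). Without oxamate replicate 4, the library that stood apart, mt-Nd5 was called higher at 0.26 (adjusted p = 0.0354 by edgeR), the 1 member called in that fit, beside 9.28% of all genes.

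For the other well-counted transcripts the interval of the oxamate effect was narrow. From 2 SE below to 2 SE above the estimate, the log2 fold change was -0.11 to 0.15 for mt-Co1, -0.18 to 0.25 for mt-Nd1, -0.19 to 0.19 for mt-Nd4, -0.22 to 0.21 for mt-Nd2 and -0.25 to 0.16 for mt-Cytb. For mt-Co2, mt-Atp6 and mt-Co3 the standard errors were 0.97, 0.54 and 0.51, and changes of that size were not detectable with the reads counted on them.

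With octyl-L2HG added to oxamate, mt-Cytb and mt-Nd2 fell. Against oxamate, 2 of the 10 were called lower and 0 higher, beside 8.06% and 3.18% of all genes, or 11.2% in either direction. The libraries of the groups did not overlap for 3 of the 10, beside 28.1% of all genes, and these were mt-Cytb and mt-Atp6 (lower) and mt-Co1 (higher). The median log2 fold change was -0.12, against -0.04 over all genes tested.

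mt-Cytb (ENSMUSG00000064370), cytochrome b, is the only subunit of complex III that mitochondrial DNA encodes. Its normalised counts were 3013.2, 3676.0 and 3788.8 in vehicle, 2791.9, 3512.5 and 3860.2 with oxamate, and 2783.4, 2537.7 and 2237.7 with both compounds. Every library with both compounds lay below every other library, though the highest of them was close to oxamate replicate 4. It fell by 0.43 on the log2 scale against oxamate (SE 0.11, adjusted p = 0.0109) and by 0.47 against vehicle (SE 0.11, adjusted p = 0.00296, both by edgeR), or 0.744 and 0.721 of the level. Both comparisons share the libraries with both compounds. Against vehicle the call held in all 9 fits that left out 1 library, whereas against oxamate it was lost without oxamate replicate 5 (adjusted p = 0.0532), oxamate replicate 6 (0.0583) or replicate 9 with both compounds (0.0933, all by edgeR).

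mt-Nd2 (ENSMUSG00000064345), a membrane subunit of complex I, held 1022.7, 1206.0 and 1193.1 normalised counts in vehicle, 948.8, 1182.9 and 1277.9 with oxamate, and 1002.7, 894.0 and 751.9 with both compounds. The libraries with both compounds lay below all vehicle libraries and overlapped with oxamate replicate 4. In the fit, the log2 fold change was -0.37 against oxamate (SE 0.11, adjusted p = 0.0315) and -0.37 against vehicle (SE 0.11, adjusted p = 0.0185, both by edgeR). The call depended on single libraries. Against oxamate it was lost without vehicle replicate 3 (adjusted p = 0.0668), oxamate replicate 5 (0.123), oxamate replicate 6 (0.148), or replicate 8 (0.0994) or 9 (0.21) with both compounds, and against vehicle without vehicle replicate 2 (0.0919) or 3 (0.106) or replicate 8 (0.062) or 9 (0.15) with both compounds, all by edgeR.

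mt-Co1 (ENSMUSG00000064351) did not pass the test in any comparison. It held 17272.3, 19095.0 and 19906.3 normalised counts in vehicle, 18559.2, 18316.7 and 20159.5 with oxamate, and 21093.2, 20595.5 and 20172.4 with both compounds. The libraries with both compounds were above all others, the lowest of them by little over the highest oxamate library. Its log2 fold change was 0.12 against oxamate (SE 0.07, adjusted p = 0.299) and 0.14 against vehicle (SE 0.07, adjusted p = 0.166, both by edgeR).

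mt-Nd1 (ENSMUSG00000064341), the complex I subunit next to the ribosomal RNA genes, held 2047.2, 2484.4 and 2464.3 normalised counts in vehicle, 2058.1, 2409.6 and 2695.9 with oxamate, and 2965.9, 2456.4 and 2131.5 with both compounds. The groups overlap. Its log2 fold change was 0.08 against oxamate (SE 0.11, adjusted p = 0.746) and 0.11 against vehicle (SE 0.11, adjusted p = 0.551, both by edgeR).

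mt-Nd4, another membrane subunit of complex I, held 2531.5, 3116.4 and 3182.1 normalised counts in vehicle, 2560.3, 2993.2 and 3266.5 with oxamate, and 2902.5, 2676.2 and 2376.8 with both compounds. Its groups overlap, and the log2 fold change was -0.15 against oxamate (SE 0.10, adjusted p = 0.383) and -0.15 against vehicle (SE 0.10, adjusted p = 0.314, both by edgeR). For mt-Nd5 and mt-Nd6 the log2 fold changes against oxamate were -0.10 (SE 0.10) and -0.38 (SE 0.22), with adjusted p of 0.622 and 0.318 by edgeR.

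Against vehicle, the libraries with both compounds had 2 of 10 transcripts lower and 0 higher, beside 10.6% and 7.48% of all genes, or 18% in either direction. These were again mt-Cytb and mt-Nd2, in a comparison that shares libraries with the one against oxamate. For 4 of the 10 the libraries did not overlap, beside 36.1% of all genes. In the test for any difference among the 3 groups, the same transcripts passed, mt-Cytb with an adjusted p of 0.00434 and mt-Nd2 with 0.0226 by edgeR, beside 19.8% of all genes. Beside these shares, a count of 2 of 10 does not set the members apart as a group.

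**Figure D3:**
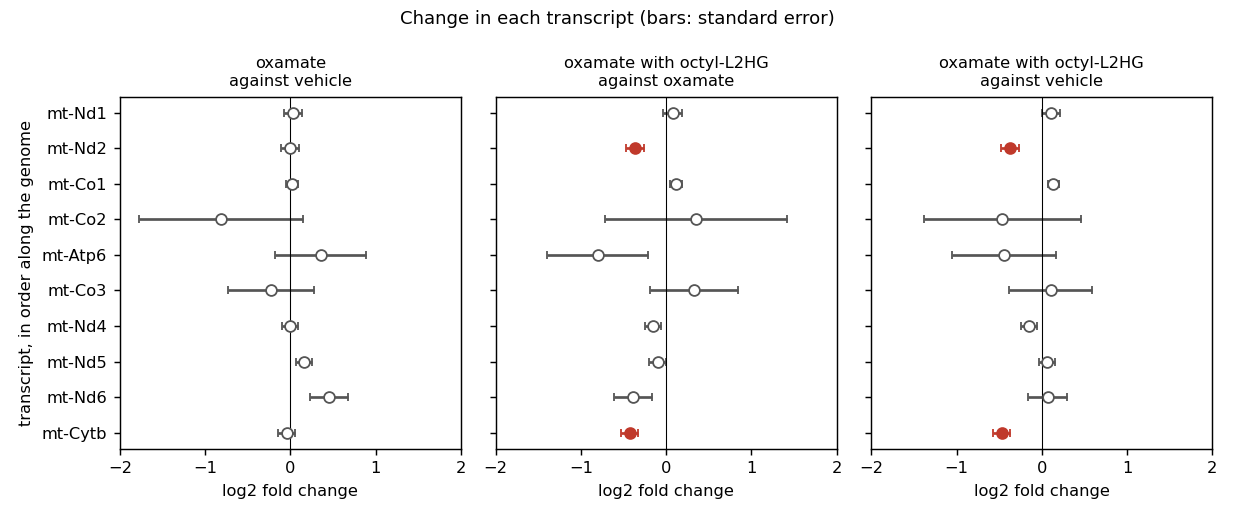
Log2 fold change of each of the 10 transcripts (points) with its standard error (bars) from edgeR, in map order, for the 3 comparisons; filled red points passed an adjusted p of 0.05. mt-Nd2 and mt-Cytb are red in both comparisons with octyl-L2HG, at -0.37 to -0.47, and mt-Co2, mt-Atp6 and mt-Co3 have the widest bars.

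The uneven change was also read within each library, where no scaling between libraries enters. For this, chosen after seeing the data, reads of each transcript with a mean of at least 500 normalised counts were divided by those of mt-Nd1, a transcript with no shared windows. The ratio of mt-Cytb to mt-Nd1 was 1.472, 1.480 and 1.537 in vehicle, 1.357, 1.458 and 1.432 with oxamate, and 0.938, 1.033 and 1.050 with both compounds. It is the per-kilobase ratio given above without the lengths, and not a separate result. The ratio of mt-Nd2 to mt-Nd1 was 0.4996, 0.4854 and 0.4841 in vehicle, 0.4610, 0.4909 and 0.4740 with oxamate, and 0.3381, 0.3639 and 0.3527 with both compounds. For both ratios, the libraries with both compounds lay below all 6 others, by more than the spread within any group. The log2 ratio differed from oxamate by -0.49 for mt-Cytb (SE 0.06) and -0.43 for mt-Nd2 (SE 0.04).

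The ratio of mt-Nd4 to mt-Nd1 was 1.237, 1.254 and 1.291 in vehicle, 1.244, 1.242 and 1.212 with oxamate, and 0.979, 1.089 and 1.115 with both compounds. It was thus also lowest in the libraries with both compounds, by a log2 difference of -0.22 from oxamate (SE 0.06). mt-Nd5 stood at 0.606, 0.595 and 0.607 in vehicle, 0.654, 0.684 and 0.638 with oxamate, and 0.543, 0.610 and 0.609 with both compounds, highest with oxamate. The ratio of mt-Co1 ran from 7.11 to 9.46 and overlapped between all groups. mt-Atp8, a small subunit of ATP synthase that passed the filter but is not in the chosen list, stood at 0.4807, 0.4598 and 0.4659 in vehicle, 0.3967, 0.4702 and 0.5039 with oxamate, and 0.5024, 0.5135 and 0.5163 with both compounds. Its ratio with both compounds was above every vehicle library, by a log2 difference of 0.12 (SE 0.02), and overlapped with oxamate. Of the 18 ratios tested, none could pass: the exact permutation test (2-sided) of 3 against 3 libraries allows no p below 0.10, and the adjusted p of ratios whose groups did not overlap was 0.180.

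**Figure D4:**
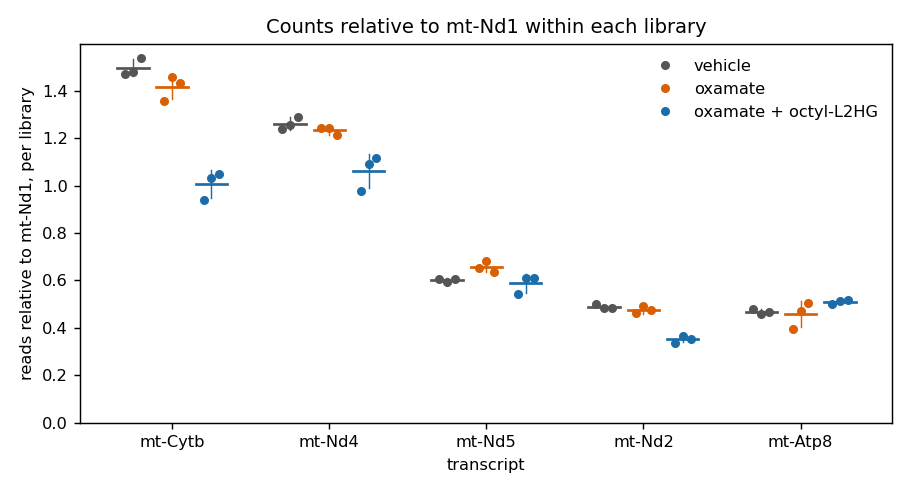
Reads of 5 transcripts divided by the reads of mt-Nd1 in the same library (points, single libraries; horizontal lines, means; vertical lines, SD; n = 3 per group; mt-Co1, at 7.11 to 9.46, is off this scale and not drawn). mt-Cytb, mt-Nd4 and mt-Nd2 are lowest in the oxamate + octyl-L2HG libraries, and mt-Cytb falls from a mean of 1.42 with oxamate to 1.01.

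Across the 9 libraries, log2 CPM of mt-Cytb and mt-Nd2 had a Pearson r of 0.98, mt-Nd2 and mt-Nd4 of 0.91, mt-Cytb and mt-Nd4 of 0.89 and mt-Nd1 and mt-Nd5 of 0.86, whereas mt-Co1 and mt-Cytb had -0.22. These are descriptions over 9 points that share the library, its depth and the treatment groups. Among 10723 other genes with a mean of at least 100 normalised counts, those most like the mean profile of the 10 members were Ndufa5 (r = 0.92), a nuclear subunit of complex I, Rab9 (0.92), Smcp (0.90), a sperm mitochondrial capsule protein, Trerf1 (0.89) and Clint1 (0.89). The least like were Copg2 (-0.92), 4930520O04Rik (-0.90), Gm12925 (-0.90), Slc25a20 (-0.90) and Mthfd2 (-0.89), a mitochondrial folate enzyme. In that profile the 3 members with few reads weigh as much as the others. With the 7 well-counted members alone, chosen after seeing the data, the 5 highest were Gm45079, Smcp (0.92), Ccdc91, Gm5905 and Prr27 and the 5 lowest Akip1, Myl6b, Mthfd2 (-0.95), Ppp3r2 and Nt5m. Ndufa5 was not among them, and Smcp and Mthfd2 were the only genes in both sets.

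The nuclear genes that copy and express mitochondrial DNA include Tfam, which was lower with oxamate. Of 17 genes of mitochondrial DNA replication and transcription, 1 was called lower with oxamate (beside 1.22% of all genes), 0 with octyl-L2HG added to oxamate (by edgeR or DESeq2, beside 11.2% of all genes, with 1 at an unadjusted p under 0.05, beside 23.6%), and 1 higher and 3 lower with both compounds against vehicle (beside 7.48% and 10.6%). Tfam, which packages mitochondrial DNA and starts its transcription, held 673.1, 735.2 and 714.2 normalised counts in vehicle, 485.6, 581.7 and 574.9 with oxamate, and 475.2, 418.9 and 463.3 with both compounds. The vehicle libraries lay above all others and the groups stepped down without overlap. Oxamate against vehicle gave a log2 fold change of -0.37 (SE 0.09, adjusted p = 0.0129 by edgeR), a call lost without vehicle replicate 2 (adjusted p = 0.0817 by edgeR). Against vehicle, both compounds gave 0.33 for Polg (SE 0.09, adjusted p = 0.0142 by edgeR), the mitochondrial DNA polymerase, and -1.05 for Mterf1b (SE 0.35, adjusted p = 0.0394 by edgeR), a termination factor gene at 5.64 to 20.2 normalised counts. The Polg call was lost without vehicle replicate 2 (adjusted p = 0.101) or replicate 9 with both compounds (0.0718), and that of Mterf1b without vehicle replicate 3 (0.19) or replicate 7 (0.064), 8 (0.0833) or 9 (0.159) with both compounds, all by edgeR.

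Of 21 genes tested for processing and stability of mitochondrial RNA, 1 was called higher with oxamate (beside 3.97% of all genes), 2 higher with octyl-L2HG added to oxamate (beside 3.18%), and 4 higher and 1 lower with both compounds against vehicle (beside 7.48% and 10.6%). These counts rested on single libraries. Without oxamate replicate 4 they were 7 in each comparison with octyl-L2HG, 6 higher and 1 lower, beside 17.9% of all genes called against oxamate and 25.1% against vehicle. The count against oxamate was 1 without oxamate replicate 5 or 6 or replicate 7, 8 or 9 with both compounds, and that against vehicle was 2 without vehicle replicate 2 or 3 or replicate 7, 8 or 9 with both compounds, beside 5.64% to 8.96% and 12% to 14.7% of all genes in those fits. Grsf1, which binds G-rich mitochondrial RNA in the granules where the precursors are processed, held 1240.2, 1216.7 and 1225.2 normalised counts in vehicle, 1260.2, 1180.9 and 1273.5 with oxamate, and 1668.3, 1678.0 and 1719.9 with both compounds. The libraries with both compounds stood well above the other 6. On the log2 scale the difference was 0.45 against oxamate (SE 0.07, adjusted p = 0.000178) and 0.46 against vehicle (SE 0.07, adjusted p = 5.09e-05, both by edgeR), and both calls held in all 9 fits that left out 1 library.

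Mtpap, the polymerase that adds poly(A) tails to mitochondrial messages, held 735.1, 837.5 and 781.3 normalised counts in vehicle, 691.9, 748.6 and 719.5 with oxamate, and 845.8, 851.6 and 872.2 with both compounds. The libraries with both compounds were above all others. Against oxamate the log2 fold change was 0.25 (SE 0.08, adjusted p = 0.0384), a call lost without oxamate replicate 5 (0.0736) or 6 (0.0844) or replicate 7 (0.0949), 8 (0.118) or 9 (0.124) with both compounds, all by edgeR. Slirp, which with Lrpprc keeps mitochondrial messages stable, held 1771.3, 1647.0 and 1423.8 in vehicle, 1391.5, 1315.6 and 1308.8 with oxamate, and 1212.0, 1283.1 and 1332.7 with both compounds. Its vehicle libraries lay above all others. Both compounds against vehicle gave a log2 fold change of -0.34 (SE 0.08, adjusted p = 0.00463 by edgeR), and it held in all 9 fits that left out 1 library. Trmt10c, a subunit of mitochondrial RNase P, was 0.44 higher on the log2 scale with oxamate (SE 0.13, adjusted p = 0.0478 by edgeR), a call that was lost in 8 of the 9 fits that left out 1 library, with the highest adjusted p, 0.204, without oxamate replicate 6. With DESeq2 size factors, total counts as scaling, filterByExpr or without vehicle replicate 3, the 1 gene of the list called with oxamate was instead Slirp, which was lower (adjusted p = 0.0446, 0.0377, 0.0448 and 0.0173 by edgeR), so the direction of that count turned.

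**Figure D5:**
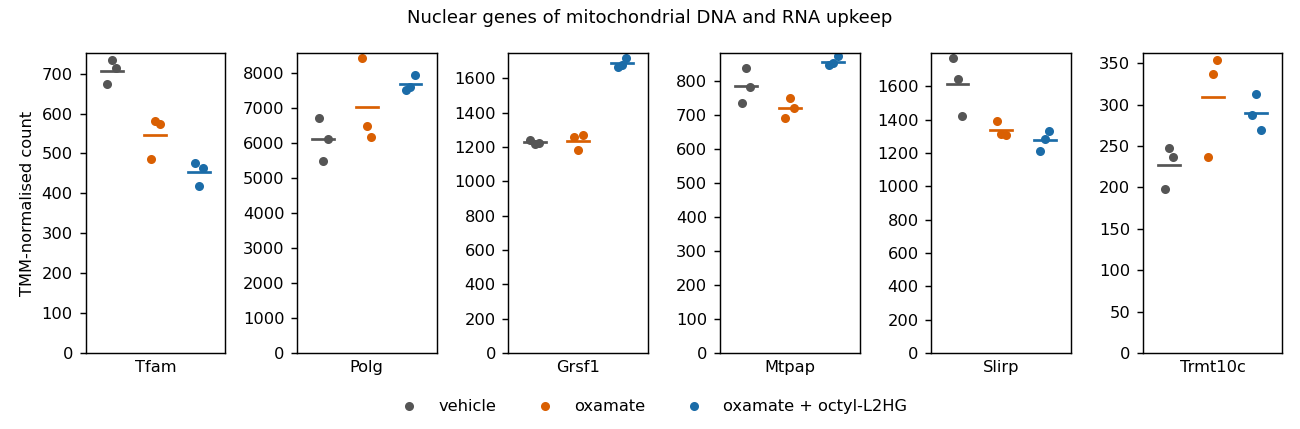
TMM-normalised counts of 6 nuclear genes of mitochondrial DNA and RNA upkeep in single libraries (points) with group means (lines), each panel on its own axis from 0. Grsf1 is flat between vehicle and oxamate and higher in the 3 oxamate + octyl-L2HG libraries, at 1668.3 to 1719.9, and Tfam steps down from vehicle to oxamate to both compounds.

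Of the 84 nuclear subunits of complexes I to V listed, 81 were tested. With oxamate 0 were called by edgeR (beside 5.19% of all genes) and 1 by DESeq2, and 18 had an unadjusted p under 0.05 (beside 17.3% of all genes). Beyond that, 1 was called lower with octyl-L2HG added to oxamate (beside 8.06%), and 21 were lower and 0 higher with both compounds against vehicle, which is 25.9% beside the 10.6% of all genes called lower. The median log2 fold changes were -0.12, -0.03 and -0.14, against -0.01, -0.04 and -0.05 over all genes tested. The 21 comprised 8 of 37 subunits of complex I, 1 of 4 of complex II, 2 of 9 of complex III, 6 of 15 of complex IV and 4 of 16 of complex V. Oxamate replicate 4 decided the first of these counts: without it, 24 of the nuclear subunits were called lower with oxamate, beside 2.86% of all genes. The third count was 8 without replicate 7 with both compounds, 9 without replicate 8 and 9 without vehicle replicate 1, which is 10%, 11.2% and 11.1% of the subunits tested beside 7.27%, 7.4% and 9.48% of all genes called lower in the same fits.

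The extremes of each complex, by log2 fold change against vehicle among those called, were Ndufb6 at -0.50 (SE 0.12) and Ndufa13 at -0.27 (SE 0.08) for complex I, and Uqcrfs1, the Rieske iron-sulfur protein, at -0.32 (SE 0.07) and Uqcrq at -0.27 (SE 0.08) for complex III, which holds cytochrome b. For complex IV they were Cox6a1 at -0.41 (SE 0.08) and Cox5a at -0.27 (SE 0.08), for complex V Atp5g3 at -0.48 (SE 0.11) and Atp5j at -0.22 (SE 0.06), and Sdhb at -0.26 (SE 0.09) was the 1 called of complex II, all of whose subunits are nuclear. Atp5g3 was also the 1 called against oxamate, at -0.38 (SE 0.11, adjusted p = 0.0217 by edgeR), a call lost without oxamate replicate 4 (0.0578) or replicate 7 (0.0905) or 8 (0.108) with both compounds. Of the calls against vehicle, those of Uqcrfs1, Cox6a1 and Atp5g3 held in all 9 fits that left out 1 library. Without vehicle replicate 1 those of Ndufa13 (adjusted p = 0.0707), Uqcrq (0.0902), Cox5a (0.0885), Atp5j (0.0631) and Sdhb (0.191) were lost, and without vehicle replicate 2 those of Atp5j (0.0758) and Sdhb (0.0749), all by edgeR. Without replicate 7 with both compounds those of Ndufb6 (0.0604), Uqcrq (0.0784), Cox5a (0.111), Atp5j (0.0523) and Sdhb (0.174) were lost, without replicate 8 those of Ndufa13 (0.09), Uqcrq (0.0524), Cox5a (0.0703), Atp5j (0.105) and Sdhb (0.0893), and without replicate 9 those of Ndufa13 (0.109), Atp5j (0.0541) and Sdhb (0.0779). The nuclear subunits that were called moved in the same direction as mt-Cytb and mt-Nd2 in the comparison with vehicle, but the steps differed. Over the 81 nuclear subunits tested, the median log2 fold change was -0.12 with oxamate and -0.03 with octyl-L2HG added. For mt-Cytb these steps were -0.04 and -0.43, and for mt-Nd2 -0.006 and -0.37. Of the 10 members, 5 were above 0 and 5 below 0 against vehicle. mt-Co1, the mitochondrial partner of Cox6a1 and Cox5a, was 0.14 on the log2 scale in that comparison and did not pass the test.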

How the data were processed

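RNA of RS was sequenced from 9 libraries, 3 per group, as polyadenylated RNA. The authors trimmed reads with cutadapt 2.10, aligned them with TopHat2 2.1.1 to GRCm39 and counted reads per gene with HTSeq 2.01, and the deposited counts are not normalized. The labels also list the build WBcel235. The deposited normalized signal is the count divided by the authors' DESeq2 1.36.0 size factor and was used only as an alternative scale. Of 55414 genes, 6250 have no values. Strand and multiple-match settings of the counting are not given in the sources used here.

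The 25128 genes whose counts reached a sum of 10 over the libraries were tested in R 4.3.3 with edgeR 4.0.16 (TMM, robust quasi-likelihood fit over all 9 libraries, Benjamini-Hochberg adjustment, threshold 0.05), a step tested on simulated data. SE is the log2 fold change divided by the root of its F statistic. Depth was 32339533 to 39888396 reads. Alternatives were DESeq2 1.42.0, other scalings and filters, fits of 2 groups, a threshold of 0.01 and each library left out.

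The members and lists were chosen with earlier results of these data known. The text names all members, any other mitochondrial gene that passed the filter, from each nuclear list and comparison the called gene with the largest and the smallest change, and the 5 genes most and least like the members' mean profile. Windows of 75 and 100 bases and all sequences came from GENCODE M21 transcripts (GRCm38). Of the 37 mitochondrial rows, 24 (ribosomal and transfer RNA) hold no values.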

Additional observations from a re-analysis of the deposited data

How the results depend on the processing

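No paired analysis was run, because no source says whether libraries of different groups share an animal or cell sort. The replicate numbers 1 to 9 run on across the groups and do not show it. The direction of mt-Cytb and mt-Nd2 with octyl-L2HG was negative under every alternative run, from -0.57 to -0.32 and from -0.48 to -0.26 on the log2 scale, and mt-Cytb against vehicle stayed below an adjusted p of 0.05 by edgeR or DESeq2 in each. Against oxamate, 1 of the 8 members tested was called after filterByExpr (beside 17.1% of all genes in that fit) and 1 of 9 in the fit of only the 2 groups compared (beside 11%), and mt-Nd2 missed the threshold in both. At a threshold of 0.01 the members called were 0 against oxamate (beside 5.02% of all genes), 1 against vehicle (10.4%) and 1 for any difference (11%). With 1 library left out, the members called ranged from 0 to 1 for oxamate against vehicle (beside 2.68% to 9.28% of all genes), 0 to 2 for both compounds against oxamate (5.64% to 17.9%), 1 to 2 against vehicle (12% to 25.1%) and 0 to 3 for any difference (12.7% to 29.7%), with 0 in the last without replicate 9 with both compounds. Per 1000 windows not shared with nuclear transcripts, the vehicle levels were 1254.8 for mt-Nd2, 5863.3 for mt-Nd4 and 21195.4 for mt-Co1.

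Small differences changed sign. With total counts as scaling, mt-Nd5 with both compounds against vehicle was -0.00091, and mt-Nd4 with oxamate was 0.0027 in the fit of only those groups. Leaving out 1 library, the log2 fold change with oxamate ranged from -0.062 to 0.131 for mt-Nd1, -0.098 to 0.109 for mt-Nd2, -0.099 to 0.089 for mt-Nd4, -0.036 to 0.060 for mt-Co1 and -0.148 to 0.078 for mt-Cytb. With both compounds against oxamate it ranged from -0.058 to 0.185 for mt-Nd1, -0.220 to 1.628 for mt-Co2 and -0.555 to 0.895 for mt-Co3, and against vehicle from -0.024 to 0.219 for mt-Nd1, -0.018 to 0.148 for mt-Nd5, -0.147 to 0.325 for mt-Nd6, -1.012 to 0.344 for mt-Co2 and -0.779 to 0.671 for mt-Co3. None of these was called.

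Counts of called nuclear genes depended more on the settings, and the cause was not tested. For subunits of complexes I to V with oxamate, DESeq2 called 1 and total counts as scaling 2, beside 4.99% and 4.8% of all genes. No filter gave 2 and filterByExpr 1, beside 4.35% and 7.48%. Against oxamate, total counts gave 4 and the threshold of 0.01 gave 0, beside 11.7% and 5.02% of all genes. Against vehicle these settings gave 33 and 9, beside 18.3% and 10.4%. These shares count either direction and apply to the lists below too. With oxamate, the threshold of 0.01 and the fit of 2 groups called 2.4% and 3.12% of all genes. The share was 17.1% with filterByExpr against oxamate, and 25% in the fit of 2 groups against vehicle. For replication and transcription, DESeq2 called 2 with oxamate, the fit of 2 groups 0 and the threshold of 0.01 0, total counts gave 1 against oxamate, and the threshold of 0.01 gave 1 against vehicle. For RNA processing and stability, where the 1 call with oxamate was lower rather than higher under 4 alternatives, DESeq2 called 2 with oxamate, no filter 2, the fit of 2 groups 0 and the threshold of 0.01 0. Against oxamate filterByExpr gave 4 and the threshold of 0.01 gave 1, and against vehicle total counts gave 2, the fit of 2 groups 8 and the threshold of 0.01 gave 2. With 1 library left out, the subunits called ranged from 0 to 24 with oxamate, 0 to 3 against oxamate and 8 to 30 against vehicle, those of replication and transcription from 0 to 2, 0 to 2 and 2 to 5, and those of RNA processing and stability from 0 to 2, 1 to 7 and 2 to 7. The share of all genes called in these fits ranged from 2.68% to 9.28%, 5.64% to 17.9% and 12% to 25.1%. Total counts moved the median of all genes with both compounds against vehicle to -0.11, from -0.05. The values of mt-Co2, mt-Atp6, mt-Co3 and mt-Nd6 rest on at most 68 reads a library, whatever the source of the low counts, which was not tested.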
